A study of Mus musculus with 69 samples.

Results

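Kidneys harvested at ZT8 from nephritic and young NZB/W F1 mice were compared, 4 nephritic against 4 young, which took 8 of the 69 libraries of the series. They were chosen by their time and diagnosis labels alone. ZT, or Zeitgeber time, counts hours from lights on under a 12 h light and 12 h dark cycle, so ZT8 lies late in the light phase, when mice rest. The NZB/W F1 mouse develops a spontaneous lupus nephritis. Young mice were 12 weeks old and nephritic mice 30 to 45 weeks old, the latter harvested 2 to 3 weeks after proteinuria reached 300 mg/dl, with blood urea nitrogen under 25 mg/dl. Age and disease cannot be told apart in this contrast. Perfused whole kidneys gave poly(A)-selected RNA and each library was 1 mouse. The same contrast at ZT0, ZT4, ZT12, ZT16 and ZT20, in 49 further libraries, served to ask which differences were particular to ZT8. The series also holds 8 libraries from mice in remission and 4 repeat libraries. The former were not used here, and the latter entered 1 alternative fit.

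The circadian clock is a transcriptional loop in which the activator BMAL1 (gene Arntl), paired with CLOCK or NPAS2, drives the output factor Dbp. The activator also drives the Per, Cry, Nr1d and Bhlhe genes, and is then repressed by the products of these. In the kidney the clock times solute transport and metabolism. Lupus nephritis begins with immune complexes in the glomerulus and goes on to fill the kidney with macrophages, T cells and B lineage cells, with loss of tubular function. In whole-kidney RNA, more or fewer cells of a type cannot be told apart from more or less RNA per cell.

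Library totals ran from 25550735 to 31271479 counts in the young and from 31049106 to 34338422 counts in the nephritic mice. Proximal tubule markers summed to between 26800 and 36400 CPM (read counts scaled to a common library size) in all 8 libraries, in keeping with kidney as the labelled tissue. Nephritic mouse 3 went against its time label: over 24 clock genes its root mean square log2 distance was 1.60 to the other nephritic ZT8 mice, but 0.72 to the nephritic ZT0 and 0.78 to the nephritic ZT4 group. Its injury index was also the highest at ZT8, with a mean log2 CPM of 5.89 over Lcn2, Havcr1, Vcam1 and Timp1 against 3.05, 3.29 and 4.60 in nephritic mice 1, 2 and 4. Young mouse 3 carried liver genes, with 10580 CPM of the albumin gene Alb and 15340 CPM over 12 liver markers, against 228 to 388 CPM over these markers in the other young mice and 323 to 961 CPM in the nephritic mice. Young mouse 4 was high in B cell, platelet and neutrophil genes. The part of these 3 libraries in the results was measured by leaving them out, and values without them are given beside the results that moved most.

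**Figure D1:**
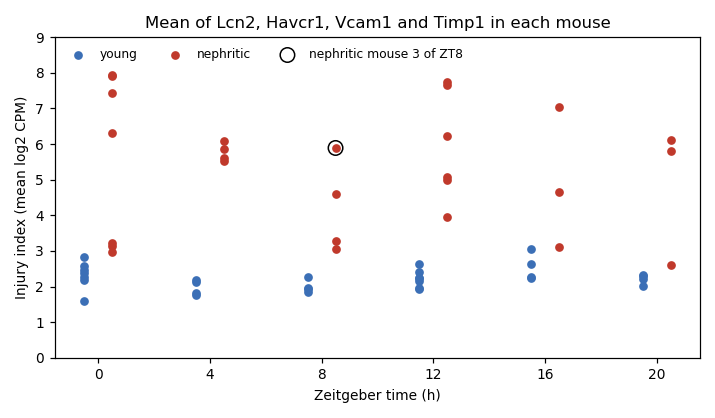
Injury index of each mouse (mean log2 CPM of Lcn2, Havcr1, Vcam1 and Timp1) against Zeitgeber time in hours, with young mice in blue and nephritic mice in red. At ZT8 3 of the 4 nephritic mice lie between 3.05 and 4.60 and mouse 3, ringed, at 5.89, whereas the 4 nephritic mice of ZT4 lie between 5.53 and 6.09.

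Among 17521 genes tested, 495 were higher in nephritic kidney at ZT8 and 146 were lower, at an adjusted p under 0.05 in edgeR's quasi-likelihood test with Benjamini-Hochberg adjustment. These p-values, and the SE given below, rest on the spread between mice within groups over all 57 young and nephritic libraries. They do not rest on the 8 ZT8 libraries alone. The higher genes were 2.83% and the lower genes 0.833% of those tested, and 429 and 57 of them differed by at least 1 on the log2 scale. ZT8 gave the fewest differences of the 6 times. The same fit called 6908 genes at ZT0, 5305 at ZT4, 8745 at ZT12, 3096 at ZT16 and 957 at ZT20, but the times also differ in mouse number, with 7 against 7 at ZT0, 4 against 4 at ZT4 and 3 nephritic mice at ZT16 and ZT20. ZT4, which had the same mouse numbers as ZT8, had a median absolute log2 change of 0.31 against 0.17 at ZT8. The times were not alike in injury either. The median injury index of the nephritic mice was 3.94 at ZT8 and 5.75 at ZT4, and lay between 4.64 and 6.30 at the times other than ZT8. Nephritic mouse 3 carried much of the ZT8 count: without it 147 genes were higher and 8 lower, and 154 of these 155 were among the 641. Fitted alone, the 8 libraries gave 12 higher and 8 lower genes, and 339 higher and 181 lower once nephritic mouse 3 was left out.

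ZT8 was the time at which the young kidney had its lowest group mean of Arntl and its highest of Dbp, Ciart and Per3, and in every nephritic mouse at ZT8 Arntl was higher and the other 3 genes were lower than in any young mouse. Of 24 clock genes, 2 rose (Arntl and Npas2) and 3 fell (Ciart, Dbp and Per3), where 2.83% of all genes rose and 0.833% fell. All 4 nephritic mice lay below all 4 young mice for 12 of the 24, where 10.3% of all tested genes did so, and above them for 3, where 6.52% did so. The promoters of 4 clock genes are shown because they carry the letters through which the loop is read. Capitals mark the E-box CACGTG, to which BMAL1 and CLOCK bind, the D-box TTATGTAA, to which DBP and its relatives bind, and the ROR half-site AGGTCA, which the ROR and REV-ERB receptors read. Each window holds 300 bases, from RefSeq on build GRCm38, 5′ to 3′ on the gene's own strand.
Arntl, activator, chr7:113207261-113207560, plus strand: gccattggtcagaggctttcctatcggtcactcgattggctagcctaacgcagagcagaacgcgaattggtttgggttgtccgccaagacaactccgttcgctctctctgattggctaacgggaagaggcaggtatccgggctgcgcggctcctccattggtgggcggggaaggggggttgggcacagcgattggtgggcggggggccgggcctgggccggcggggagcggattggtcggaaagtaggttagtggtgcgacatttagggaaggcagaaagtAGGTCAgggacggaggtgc
Ciart, repressor, chr3:95882179-95882478, minus strand: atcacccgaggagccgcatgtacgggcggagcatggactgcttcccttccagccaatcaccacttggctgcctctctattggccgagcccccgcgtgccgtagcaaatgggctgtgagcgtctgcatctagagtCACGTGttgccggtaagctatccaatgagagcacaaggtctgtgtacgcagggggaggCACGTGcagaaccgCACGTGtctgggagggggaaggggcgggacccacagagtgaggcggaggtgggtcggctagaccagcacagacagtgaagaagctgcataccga
Per3, period family, chr4:151044616-151044915, minus strand: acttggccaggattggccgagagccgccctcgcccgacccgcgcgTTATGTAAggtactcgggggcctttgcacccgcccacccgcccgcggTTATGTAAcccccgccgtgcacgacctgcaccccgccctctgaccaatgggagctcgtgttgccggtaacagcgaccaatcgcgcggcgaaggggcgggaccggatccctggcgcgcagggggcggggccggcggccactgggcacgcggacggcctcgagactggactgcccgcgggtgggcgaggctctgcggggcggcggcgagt
Bhlhe41, repressor, chr6:145865371-145865670, minus strand: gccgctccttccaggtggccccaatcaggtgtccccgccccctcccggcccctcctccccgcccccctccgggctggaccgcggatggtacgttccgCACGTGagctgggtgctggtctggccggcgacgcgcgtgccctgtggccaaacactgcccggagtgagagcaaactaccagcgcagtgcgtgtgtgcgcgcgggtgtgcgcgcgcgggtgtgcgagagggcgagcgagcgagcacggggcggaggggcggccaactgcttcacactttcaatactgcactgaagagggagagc

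Counted from the start site, the Ciart window held 3 E-boxes, at -116, -58 and -44. The Per3 window held 2 D-boxes, at -205 and -158, the Bhlhe41 window 1 E-box at -153 and the Arntl window 1 ROR half-site at 31. Both strands were searched and the motifs do not overlap one another. Of 32851 RefSeq windows of this length, 7.15% held the E-box, 0.938% the D-box and 16.3% the ROR half-site. The windows of Dbp and Npas2 and the first window of Arntl held none of these letters.

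Arntl (chr7:113207465-113314126), the gene of BMAL1, read 1.14, 1.17, 1.15 and 1.20 CPM in young mice 1 to 4, against 2.12, 3.73, 18.02 and 3.04 CPM in nephritic mice 1 to 4. The young values differed by little and every nephritic value lay above them, with mouse 3 far above the rest. The log2 change was 2.53 ± 0.38 (SE, n = 4 per group, adjusted p = 1.9e-05 in edgeR's test). Without nephritic mouse 3 it was 1.38 ± 0.27, and it still passed the test (adjusted p = 0.00243). Over the day young Arntl swung from 1.17 CPM at ZT8 to 44.1 CPM at ZT20 in group means. The nephritic group means ran from 6.73 CPM at ZT8 to 29.9 CPM at ZT16, but the ZT8 mean rests on mouse 3, the other 3 mice lying between 2.12 and 3.73 CPM.

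Npas2, whose protein can take the place of CLOCK, read 1.07, 0.964, 1.12 and 0.949 CPM in the young mice and 1.43, 2.49, 16.98 and 1.84 CPM in the nephritic mice. The groups did not overlap, but mouse 3 stood far above the other nephritic mice. Its log2 change of 2.47 ± 0.43 passed the test (edgeR, adjusted p = 0.00015) and fell to 0.94 ± 0.28 without mouse 3, which did not pass (adjusted p = 0.123).

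Dbp, the output factor that binds D-boxes, read 230, 234, 208 and 220 CPM in the young mice against 129, 109, 10.05 and 140 CPM in the nephritic mice. All nephritic values lay below the young ones, and mouse 3 lay just below the lowest young value of ZT16, 10.7 CPM. The log2 change was -1.20 ± 0.36 (edgeR, adjusted p = 0.0458), and -0.79 ± 0.27 without mouse 3, which did not pass (adjusted p = 0.215). Ciart, a repressor of the BMAL1 and CLOCK pair, read 19.4, 22.6, 21.8 and 23.6 CPM in the young and 11.9, 8.55, 1.01 and 8.31 CPM in the nephritic mice. It too was lower in every nephritic mouse, by a log2 change of -1.56 ± 0.37 (edgeR, adjusted p = 0.00823). Without mouse 3 the change was -1.16 ± 0.32 and missed the threshold (adjusted p = 0.0742). Per3 read 94.3, 89.0, 84.3 and 79.5 CPM in the young and 56.6, 59.3, 10.8 and 62.3 CPM in the nephritic mice. Its log2 change was -0.88 ± 0.25 (edgeR, adjusted p = 0.0391), and -0.51 ± 0.19 without mouse 3 (adjusted p = 0.326).

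Several partners of these genes lay lower in every nephritic mouse without passing the test. Per2, a repressor of the loop, had a log2 change of -0.94 (adjusted p = 0.0673 in edgeR's test). Tef, a relative of Dbp, was at -0.69 (adjusted p = 0.11) and Hlf, the other relative, at -0.63 (adjusted p = 0.357). Cry2 was at -0.52 and the REV-ERB genes Nr1d1 and Nr1d2 at -0.61 and -0.49. Clock itself was at 0.21, with an interval of -0.09 to 0.50. Csnk1d, a kinase of the PER proteins, was at 0.05 with an interval of -0.12 to 0.21. Leaving out mouse 3 left the median of the 24 clock genes at -0.26, against -0.46 with it and -0.21 over the other times. On leaving out nephritic mouse 3, 1 of the 24 rose and 0 fell, and on leaving out young mouse 3, 2 rose and 1 fell.

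**Figure D2:**
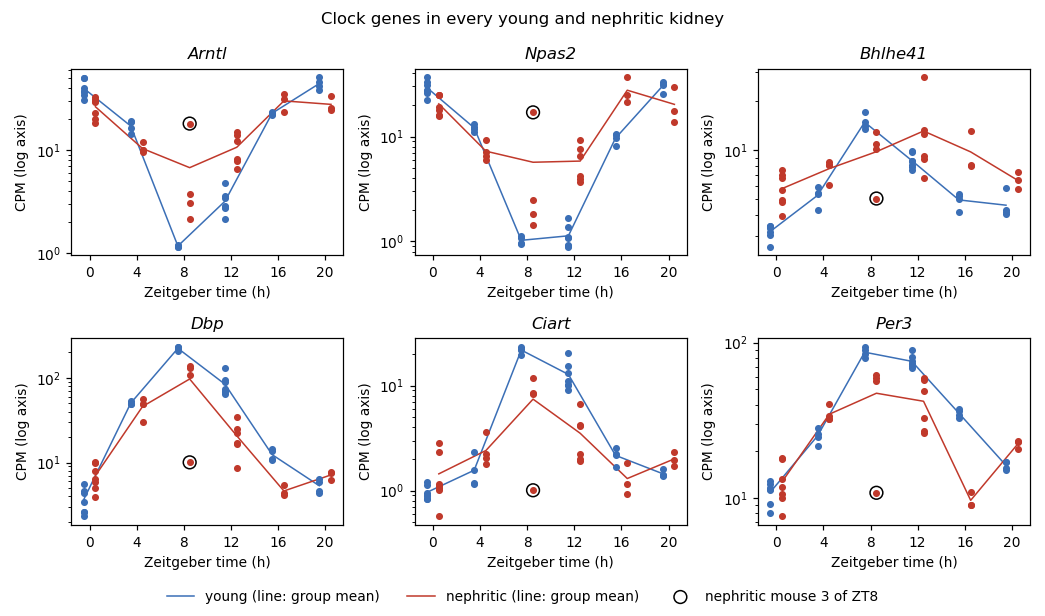
CPM on a log axis of 6 clock genes in every young (blue) and nephritic (red) kidney against Zeitgeber time in hours, with points for mice and lines through group means. At ZT8 the young points of Arntl lie between 1.14 and 1.20 CPM while the nephritic points lie above them, and the ringed nephritic mouse 3 stands away from its own group in all 6 genes.

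Macrophage and other myeloid genes held most of the rises with the smallest p. Of 21 myeloid markers 16 rose and none fell, where 2.83% of all genes rose. Their median log2 change was 2.15, against -0.03 for all tested genes, and 2.57 for the mean of the other times. Without nephritic mouse 3 the median was 1.25 and 12 still passed. The 8 higher genes with the smallest p that did not overlap between groups included Clec4e, Itgam, Ms4a6c, Lyz2, Clec4a3, Fpr2 and Bcl2a1b, genes used in large part by macrophages and neutrophils.

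Itgam (chr7:128062640-128118491), the integrin CD11b of myeloid cells, read 1.18, 0.922, 0.944 and 1.16 CPM in the young and 3.91, 9.07, 34.7 and 6.73 CPM in the nephritic mice. Each nephritic mouse lay above each young mouse, and mouse 3 was highest. The log2 change was 3.69 ± 0.48 (edgeR, adjusted p = 5.2e-06), and 2.68 ± 0.40 without mouse 3 (adjusted p = 0.00022). Lyz2, the macrophage lysozyme, read 32.3, 24.3, 32.9 and 34.3 CPM in the young and 81.1, 96.7, 458 and 138 CPM in the nephritic mice. It was thus raised in all 4, by a log2 change of 2.64 ± 0.35 (edgeR, adjusted p = 5.2e-06), or 1.80 ± 0.28 without mouse 3. Clec4e, the pattern receptor Mincle, had 1 count over the 4 young libraries and 323 counts over the nephritic ones, a ratio of 250 with an exact 95% counting interval of 44.5 to 9900. It read 1.56, 1.67, 4.36 and 1.90 CPM in nephritic mice 1 to 4, which makes it the rise in which mouse 3 stood least apart among these 3 genes.

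Fpr2, a receptor for formyl peptides, had a log2 change of 4.34 ± 0.60. Ms4a6c was at 3.40, Clec4a3 at 3.48 and Bcl2a1b, a survival factor, at 3.06, each without overlap. Fcgr1, the high-affinity receptor for IgG, was at 3.03 and Ctss, the protease that trims the MHC class II chaperone, at 2.83. Csf1r, the receptor for macrophage growth factor, did not pass, at 0.17 with an interval of -0.14 to 0.49. The neutrophil gene Ly6g was at -0.02 with an interval of -1.64 to 1.59, and S100a8 read 7.10 CPM in young mouse 4 against 0.091 to 0.42 CPM in the other 7 mice.

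**Figure D3:**
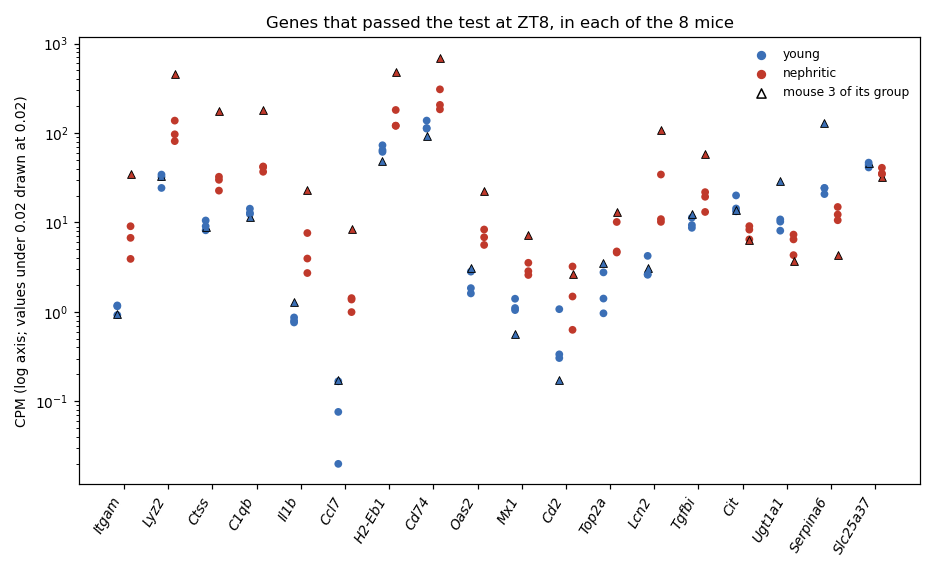
CPM on a log axis of 18 genes that passed the ZT8 test, 1 point per mouse, young in blue and nephritic in red, with mouse 3 of each group as a triangle. Nephritic mouse 3 is the highest point for Itgam, Lyz2, Ctss and C1qb, and young mouse 3 is the highest for Ugt1a1 and Serpina6.

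Complement marks immune complexes and draws in phagocytes. Of 17 complement genes 5 rose and none fell, where 2.83% of all genes rose. They were the C1q chains C1qa, C1qb and C1qc, made by macrophages, and the anaphylatoxin receptors C3ar1 and C5ar1. C1qb read 14.2, 12.4, 11.5 and 12.8 CPM in the young and 36.8, 42.3, 183 and 41.5 CPM in the nephritic mice, a log2 change of 2.58 ± 0.37 (edgeR, adjusted p = 1e-05). The other 3 nephritic mice were close to each other and well above the young, and without mouse 3 the change was 1.69 ± 0.30 (adjusted p = 0.00075). C3, which the liver makes in bulk, read 1216 CPM in young mouse 3 and 56.5 to 60.7 CPM in the other young mice, against 130 to 259 CPM in the nephritic mice. The median of the list was 0.25, and 0.81 without young mouse 3. In that fit 6 of the 17 rose, with C4b at 2.21 ± 0.55 (edgeR, adjusted p = 0.0164). Without nephritic mouse 3 the median was 0.04 and 5 rose.

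All 10 genes of MHC class II antigen presentation had a positive log2 change and 8 rose, where 2.83% of all genes rose. Their median was 1.54 against 2.04 at the other times. H2-Eb1, a class II beta chain, read 72.9, 61.5, 49.2 and 64.3 CPM in the young and 120, 121, 484 and 181 CPM in the nephritic mice. The groups did not overlap and the log2 change was 1.87 ± 0.40 (edgeR, adjusted p = 0.00191). Cd74, the class II chaperone, was at 1.61, H2-Ab1 at 1.71 and H2-DMb2, which helps to load peptide, at 2.07. Without mouse 3 the median was 1.03 and 0 of the 10 passed in edgeR's test, though 9 had an unadjusted p under 0.05, with H2-Eb1 at 1.22 ± 0.37 (adjusted p = 0.119). On leaving out young mouse 3, 5 of the 10 passed. H2-Oa and H2-Ob, expressed in B cells, were among those that did not pass, at 1.04 and 1.48.

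Of 21 chemokines and cytokines 8 rose and none fell, where 2.83% of all genes rose. The median log2 change was 2.02 against 2.58 at the other times. Il1b, the inflammasome product, read 0.762, 0.796, 1.29 and 0.866 CPM in the young and 2.72, 7.61, 22.8 and 3.95 CPM in the nephritic mice. No nephritic value reached down to the young ones, with a log2 change of 3.31 ± 0.51 (edgeR, adjusted p = 2.5e-05) and 2.38 ± 0.46 without mouse 3 (adjusted p = 0.00192). The monocyte chemokines Ccl7 and Ccl8 were at 4.79 ± 0.73 and 4.28 ± 0.72. Ccl20, which draws CCR6-bearing lymphocytes, had 0 counts in every young library and 151 over the nephritic ones, so it was at least 38.9-fold higher against a floor of 3 counts over the young group. Its bound lies above the median of the list, which therefore does not turn on its fitted value. Tnf was at 2.02 and Tnfsf13b, the B cell survival factor BAFF, at 1.53. Cxcl14 and Cxcl12 did not pass, at 0.18 and -0.29. The median of the list was 1.27 without nephritic mouse 3, and 5 of the 21 passed.

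Interferon-stimulated genes were all in the positive direction, with 9 of 20 rising, where 2.83% of all genes rose. Their median was 0.94 against 1.55 at the other times. Oas2, a sensor of double-stranded RNA, read 2.82, 1.84, 3.11 and 1.61 CPM in the young and 5.604, 6.83, 22.6 and 8.34 CPM in the nephritic mice. Its log2 change was 2.20 ± 0.37 (edgeR, adjusted p = 8.1e-05), or 1.59 ± 0.34 without mouse 3 (adjusted p = 0.00677). Mx1, an antiviral GTPase, was at 1.98, Oas1a at 1.92 and Zbp1, a sensor of left-handed nucleic acid, at 1.90. Rsad2 and Gbp3 did not pass, at 0.39 and 0.35. Without mouse 3, 5 of the 20 passed and the median was 0.68.

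The lymphocyte lists had smaller medians at ZT8 than over the other times. All 12 T cell markers had a positive log2 change and 7 rose, where 2.83% of all genes rose. Of these only Ctla4, an inhibitory receptor, rose without overlap. Cd2, an adhesion receptor of T cells, read 0.305, 0.335, 0.175 and 1.07 CPM in the young and 0.630, 1.49, 2.63 and 3.22 CPM in the nephritic mice. Nephritic mouse 1 thus overlapped the young range, and the log2 change was 2.09 ± 0.53 (edgeR, adjusted p = 0.0131). The median was 1.62 against 2.94 at the other times, and without mouse 3 none of the 12 passed in edgeR's test, though 10 had an unadjusted p under 0.05, with Cd2 at 1.97 ± 0.55 (adjusted p = 0.0789). Without young mouse 3, 1 of the 12 passed and the median was 1.40. Cd3d and Cd3g, chains of the T cell receptor complex, were at 1.90 and 1.85, while Cd3e and Cd8a did not pass, at 1.06 and 0.31.

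Of 13 B and plasma cell markers 1 rose (Pou2af1, a B cell coactivator) and 1 fell (Tnfrsf17, the plasma cell receptor BCMA). Over all genes 2.83% rose and 0.833% fell. Tnfrsf17 read 26.1 CPM in young mouse 1 and between 0.0699 and 0.292 CPM in the other 7 mice, so its fall of -5.11 was that of 1 library, and without young mouse 1 the log2 change was 0.40 ± 0.68 (edgeR, adjusted p = 0.874). Pou2af1 read 0.229, 0.335, 0.175 and 2.23 CPM in the young and 0.729, 1.82, 4.09 and 8.80 CPM in the nephritic mice. Young mouse 4 overlapped the nephritic range. Its log2 change of 2.40 ± 0.71 (edgeR, adjusted p = 0.0423) became 3.97 ± 0.85 without young mouse 4 (adjusted p = 0.00294). It did not pass without nephritic mouse 3, at 2.41 ± 0.75 (adjusted p = 0.132), nor without young mouse 3, at 2.06 ± 0.75 (adjusted p = 0.166), nor without young mouse 1, at 2.14 ± 0.76 (adjusted p = 0.132).

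The largest fitted log2 changes among rises without overlap belonged to Il1f6, Ccl20, Clec4e, Glycam1, Reg3g and Krt17, all with few or no counts in the young. Il1f6, the epithelial cytokine IL-36 alpha, had 0 counts in every young library and 271 over the nephritic ones, at least 69.9-fold higher against the same floor. It read 0.0332, 0.394, 4.76 and 2.54 CPM in nephritic mice 1 to 4, so mouse 1 was close to the young. Glycam1, a ligand of the homing receptor L-selectin on high endothelial venules, read 0.365, 1.27, 5.76 and 8.22 CPM in nephritic mice 1 to 4. With 2 counts over the young libraries, its ratio was 209 with an exact 95% counting interval of 57.6 to 1730. Reg3g, an epithelial antimicrobial lectin, had a ratio of 67.7 (exact interval 18.5 to 563, 2 young counts) and Krt17, a keratin of stressed epithelium, one of 39.5 (exact interval 13.3 to 193, 3 young counts). These intervals cover counting error only.

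Tubular injury genes varied widely among the nephritic mice. Of 19, 5 rose and none fell, where 2.83% of all genes rose. Lcn2, the injury marker NGAL, read 4.23, 2.64, 3.08 and 2.60 CPM in the young and 10.1, 10.9, 108 and 34.3 CPM in the nephritic mice. The groups did not overlap, but mouse 3 stood far above mice 1 and 2, and the log2 change was 3.70 ± 1.08 (edgeR, adjusted p = 0.0419). Timp1, an inhibitor of matrix proteases, was at 3.94 ± 1.10 and Cd44, a hyaluronan receptor, at 2.05 ± 0.56. Cdkn1a, the cell cycle inhibitor p21, read 5.5998, 6.58, 6.19 and 5.90 CPM in the young and 11.3, 12.3, 34.6 and 11.7 CPM in the nephritic mice. Nephritic mice 1, 2 and 4 were close together and mouse 3 far above, and the log2 change of 1.53 ± 0.30 (edgeR, adjusted p = 0.00083) became 0.99 ± 0.27 without mouse 3 (adjusted p = 0.0713), beside 1.45 at the other times. Havcr1, the proximal tubule marker KIM-1, did not pass, at 1.20 with an interval of -0.37 to 2.77. Without mouse 3, 0 of the 19 passed in edgeR's test, 6 had an unadjusted p under 0.05 and Lcn2 was at 2.59 ± 1.07 (adjusted p = 0.419). Without young mouse 3, 1 of the 19 passed.

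Few matrix or proliferation genes passed, where 2.83% of all genes rose. Of 23 matrix genes 2 rose, Timp1 and Tgfbi, the latter a matrix protein induced by TGF-beta, at 1.43 ± 0.30. Col6a3 and Postn did not pass, at 0.15 and -0.06. Of 20 proliferation genes all were positive and 2 rose, Top2a and Mki67. Top2a, a topoisomerase of dividing cells, read 1.41, 0.964, 3.50 and 2.76 CPM in the young and 4.74, 4.61, 13.01 and 10.1 CPM in the nephritic mice. Its log2 change was 1.90 ± 0.46 (edgeR, adjusted p = 0.00906), and 1.61 ± 0.48 without mouse 3 (adjusted p = 0.111). The median of the proliferation genes was 0.94 against 2.29 at the other times, and that of the matrix genes 0.46 against 1.08. The matrix median was 0.18 without nephritic mouse 3, and 0 matrix and 0 proliferation genes passed in edgeR's test, with 3 and 10 at an unadjusted p under 0.05. Tgfbi was then at 0.82 ± 0.26 (adjusted p = 0.144) and Timp1 at 2.83 ± 1.11 (adjusted p = 0.365), and without young mouse 3 Timp1 was at 3.58 ± 1.20 (adjusted p = 0.12).

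Of 10 podocyte markers 2 rose and none fell, where 2.83% of all genes rose. Their median was 0.28 against 0.27 at the other times. Ptpro, a phosphatase of podocyte foot processes, read 22.1, 24.3, 19.02 and 28.3 CPM in the young and 27.1, 35.7, 47.3 and 38.8 CPM in the nephritic mice. Nephritic mouse 1 lay within the young range and the other 3 above it, with a log2 change of 0.67 ± 0.20 (edgeR, adjusted p = 0.0445). Podxl, a sialomucin of the foot processes, did not pass, at 0.16. In edgeR's test 0 of the 10 passed without nephritic mouse 3, and 0 without young mouse 3, with 3 at an unadjusted p under 0.05 in each case. None of 11 endothelial markers passed or had an unadjusted p under 0.05, with a median of -0.01 that was 0.02 under another scaling of the libraries (RLE).

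Fewer genes fell, and some of them rested on young mouse 3. Those that fell by at least 1 on the log2 scale without overlap, with a mean of at least 1 CPM in the young, numbered 8 and were Cit, Ciart, Ugt1a1, Marc1, Serpina6, Proz, Ly6f and Dbp. Cit (chr5:115845278-116008947), the citron kinase of dividing cells, read 14.3, 13.3, 13.9 and 20.1 CPM in the young and 6.47, 8.31, 6.38 and 9.10 CPM in the nephritic mice. No nephritic value reached the young range, with a log2 change of -1.03 ± 0.22 (edgeR, adjusted p = 0.00235), and -1.07 ± 0.24 without young mouse 3. Without nephritic mouse 3 it was -0.92 ± 0.25 (adjusted p = 0.0646).

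Serpina6, the liver-made corticosteroid-binding globulin, read 24.3, 24.2, 129 and 20.8 CPM in the young and 14.9, 12.3, 4.36 and 10.6 CPM in the nephritic mice. Young mouse 3 stood far above its peers, and the log2 change of -2.24 ± 0.61 (edgeR, adjusted p = 0.0256) became -1.13 ± 0.58 without it (adjusted p = 0.403). Ugt1a1, which conjugates bilirubin, went from -1.41 ± 0.36 to -0.83 ± 0.34 without young mouse 3, Marc1 from -2.27 to -0.91, Proz from -1.34 to -0.80 and Ly6f from -1.54 to -1.04, none of which then passed. Of the 146 lower genes 65 were still called without young mouse 3 and 8 without nephritic mouse 3.

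The brush border and metabolic genes of the tubule had mostly negative log2 changes at ZT8, and few passed the test. Of 24 proximal tubule markers 1 fell, where 0.833% of all genes fell, and 21 had a negative log2 change, with a median of -0.47 against -0.73 at the other times. All 4 nephritic mice lay below all 4 young mice for 14 of the 24, where 10.3% of all genes did so. Slc6a19, the neutral amino acid transporter of the brush border, read 537, 527, 542 and 631 CPM in the young and 216, 338, 127 and 387 CPM in the nephritic mice. The ranges were apart, and its log2 change of -1.07 ± 0.34 had an adjusted p of 0.0711 in edgeR's test. The marker that fell was Cyp2e1, a cytochrome that liver shares, at 696 CPM in young mouse 3 and 137 to 174 CPM in the other young mice, and its log2 change went from -1.46 to -0.54 ± 0.40 without that mouse. It also missed the threshold under RLE scaling, and without nephritic mouse 3 none of the 24 passed in edgeR's test, with 2 at an unadjusted p under 0.05 and a median of -0.30.

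All 30 genes of fatty acid oxidation had a negative log2 change, while 29 did under RLE scaling and in DESeq2 and 28 without young mouse 3. In edgeR's test 0 passed and 5 had an unadjusted p under 0.05, as they did in DESeq2 and limma. Of all 17521 genes tested 2825 had an unadjusted p under 0.05, a share close to that of this list. The median was -0.22 against -0.39 at the other times, and 12 of the 30 were lower without overlap, where 10.3% of all genes were. Without nephritic mouse 3 the median was -0.16 and 1 of the 30 had an unadjusted p under 0.05 in edgeR. Acaa1b, a peroxisomal thiolase, read 892, 1084, 837 and 991 CPM in the young and 447, 577, 370 and 569 CPM in the nephritic mice, a log2 change of -0.95 ± 0.35 (edgeR, adjusted p = 0.132). Its ranges were well apart. Ppara, the receptor that drives this pathway, was at -0.76 with an interval of -1.41 to -0.12, and Cpt1a, the gate of fatty acids into mitochondria, at -0.42 with an interval of -0.79 to -0.04. Eci1 and Crot changed least, at -0.02 and -0.04.

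Of 26 fatty acid and sterol synthesis genes 0 passed in edgeR, DESeq2 or limma, 4 had an unadjusted p under 0.05 in edgeR and 24 were negative, with a median of -0.25 against -0.53, and 2 were lower without overlap, where 10.3% of all genes were. Hmgcs1, an early enzyme of sterol synthesis, was at -0.06 with an interval of -0.47 to 0.35, and Acly, which makes cytosolic acetyl-CoA, at -0.05 with an interval of -0.37 to 0.26. This list's median was -0.13 without nephritic mouse 3, -0.15 without young mouse 3 and -0.01 without both. The 10 gluconeogenesis genes were all negative with a median of -0.26 against -0.59, none passed or had an unadjusted p under 0.05, and Pck1, the committing enzyme, was at -0.43 with an interval of -1.45 to 0.59. Of 16 glycolysis genes 2 rose, where 2.83% of all genes rose, and the median was -0.08. They were Hk3, a hexokinase of blood cells, at 1.68 and Pfkp at 0.35. Neither passed without nephritic mouse 3, with Hk3 at 0.92 ± 0.38 (edgeR, adjusted p = 0.419) and Pfkp at 0.30 ± 0.10 (adjusted p = 0.171).

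None of 26 sodium and water transport genes passed and 2 had an unadjusted p under 0.05, with a median of -0.04 against -0.21 at the other times. Stk39, the kinase that activates the distal salt cotransporters, was at 0.01 with an interval of -0.20 to 0.22. None of 15 distal nephron markers passed or had an unadjusted p under 0.05, with Fxyd4 at 0.04 and Slc4a1 at -0.03. Of 18 glucocorticoid targets 2 rose, where 2.83% of all genes rose. They were Lcn2 and Cdkn1a, both also injury genes, and neither passed without nephritic mouse 3. Sgk1 and Mt2 were at -0.05 and -0.01. Of 20 immediate early genes 1 rose, a count near the 2.83% of all genes that rose. It was Egr2 at 2.48, while Ier3 and Cyr61 were at -0.03 and 0.27. Egr2 was at 1.82 ± 0.74 without nephritic mouse 3 and did not pass (edgeR, adjusted p = 0.393). None of 15 heat shock, 12 adrenal and 11 adipocyte genes passed in edgeR, and 1, 0 and 0 had an unadjusted p under 0.05, with Hspe1 at -0.03, Star at -0.04 and Fabp4 at 0.03. The adrenal median was 0.03 against -3.89 at the other times. No adrenal departure was negative or called in edgeR, while DESeq2 called 1 adrenal gene higher, 1 lower and 1 departing. The adrenal genes summed to no more than 15 CPM in any ZT8 library. Of 3 red blood cell markers tested 1 fell, where 0.833% of all genes fell. It was the iron importer Slc25a37 at -0.31 ± 0.08, while Alas2 did not pass, at -0.99. Slc25a37 missed the threshold under RLE scaling, at -0.23 ± 0.09 without nephritic mouse 3 (edgeR, adjusted p = 0.398) and at -0.29 ± 0.09 without young mouse 3 (adjusted p = 0.0791).

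**Figure D4:**
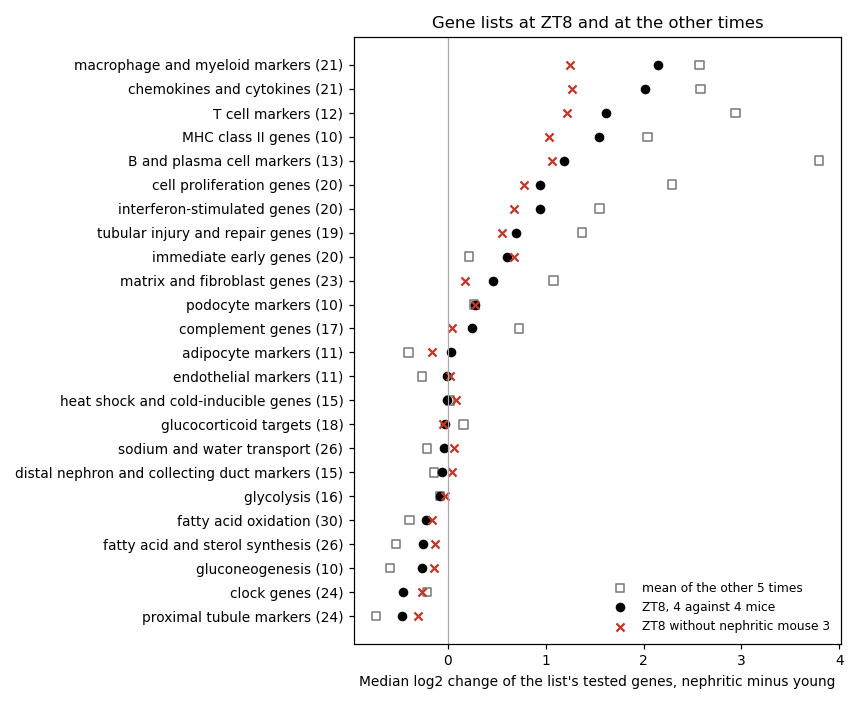
Median log2 change, nephritic minus young, of the tested genes of each list (number in brackets), except the adrenal and red blood cell lists, which are not drawn. Filled points stand for ZT8, open squares for the mean of the other 5 times and crosses for ZT8 without nephritic mouse 3. Myeloid markers stand at 2.15 at ZT8 and 2.57 elsewhere, B and plasma cell markers at 1.19 and 3.79, and proximal tubule markers at -0.47 and -0.73.

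To ask what was particular to ZT8, the difference there was set against the mean difference of the other 5 times in the same fit. In 3 genes (0.0171% of those tested) the ZT8 difference was higher and in 16 (0.0913%) it was lower, and 2056 genes had an unadjusted p under 0.05. 8 of these 19 genes were also called at ZT8 itself. Of the 24 clock genes 3 departed, Arntl, Npas2 and Bhlhe41. Of the 19, Arntl alone was called in each of the 8 fits that left out 1 ZT8 mouse.

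Arntl departed by 2.50 ± 0.40 on the log2 scale (edgeR, adjusted p = 0.00117), from a mean difference of 0.03 at the other times. Its nephritic minus young difference was -0.60 at ZT0, -0.73 at ZT4, 1.73 at ZT12, 0.40 at ZT16 and -0.67 at ZT20. The sign at ZT8 was thus shared with ZT12 and ZT16 and opposite to ZT0, ZT4 and ZT20. On leaving out each ZT8 mouse the departure ranged from 1.33 to 2.82, the lowest without nephritic mouse 3 (adjusted p = 0.0428). In the young, Arntl at ZT8 was 3.99 below its mean at the other times, and in the nephritic mice it was 1.48 below.

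Npas2 departed by 2.06 ± 0.46 (edgeR, adjusted p = 0.0434), but by 0.50 ± 0.30 without nephritic mouse 3 (adjusted p = 0.43). The rise of Npas2 was shared with ZT12, at 3.65 to 9.17 CPM in nephritic against 0.886 to 1.69 CPM in young mice. It was shared too with ZT16, at 21.1 to 36.6 against 8.05 to 10.5 CPM. At ZT4 the nephritic mice were lower, at 6.02 to 9.32 against 11.1 to 13.2 CPM, and at ZT0 and ZT20 the ranges overlapped. Bhlhe41, a repressor that binds E-boxes, read 13.4, 16.97, 13.98 and 14.9 CPM in the young and 10.9, 10.2, 5.06 and 12.96 CPM in the nephritic mice, so all 4 were lower. At the other times it was higher in nephritic kidney, by 0.50 to 0.97 on the log2 scale, and the departure was -1.29 ± 0.26 (edgeR, adjusted p = 0.0214). Without nephritic mouse 3 it was -1.06 ± 0.25 and just missed the threshold (adjusted p = 0.0537).

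Itgb6, a subunit of the epithelial integrin that activates TGF-beta, was the third gene with a higher ZT8 difference. It read 52.4, 50.9, 51.4 and 52.1 CPM in the young and 73.4, 64.7, 94.01 and 57.03 CPM in the nephritic mice. The young mice were within a few CPM of each other and every nephritic mouse was above them, whereas at ZT0, ZT4, ZT16 and ZT20 the log2 change was negative and at ZT12 it was 0.08. The departure was 0.66 ± 0.14 (edgeR, adjusted p = 0.0386), and 0.52 ± 0.14 without nephritic mouse 3 (adjusted p = 0.0766).

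B lineage and platelet genes were among those that departed downwards, with Tnfrsf17, Pax5, Cd79a and Pou2af1 of the B lineage and Ppbp and Gp1bb of platelets. Cd79a, a chain of the B cell receptor, read 0.686, 0.629, 0.454 and 8.79 CPM in the young and 1.56, 4.004, 6.46 and 13.1 CPM in the nephritic mice. Young mouse 4 lay within the nephritic range. The departure of -4.11 ± 0.81 (edgeR, adjusted p = 0.0214) was -1.96 ± 0.83 without young mouse 4 (adjusted p = 0.403). The same mouse read 9.69 CPM of Ppbp, a platelet chemokine, against 0.0839 to 0.724 CPM in the other 7 mice. Without it 4 of the 19 genes still departed, and without young mouse 1, the only mouse high in Tnfrsf17, that gene did not (departure -1.74 ± 0.75, adjusted p = 0.469). Pax5, the B cell identity factor, was at 0.0995 to 0.643 CPM in all 8 mice with overlap, and its departure of -4.88 rests on values this low.

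A further 9 genes that departed downwards were Mcm10, Recql4, Hjurp, Kri1, Edc4, Coro7, Tekt2, Cyb5r2 and, from the clock, Bhlhe41. Mcm10, a replication factor, read 6.25, 7.5003, 13.7 and 5.90 CPM in the young and 4.74, 4.34, 3.25 and 5.21 CPM in the nephritic mice. It was lower in all nephritic mice at ZT8 and 0.38 higher at the other times, with a departure of -1.31 ± 0.26 (edgeR, adjusted p = 0.0214) and -0.95 ± 0.25 without young mouse 3 (adjusted p = 0.129). Recql4, a DNA helicase, and Hjurp, a centromere chaperone, departed by -1.36 and -1.20. Coro7, a Golgi coronin, read 60.4, 58.8, 56.8 and 58.3 CPM in the young and 44.8, 51.1, 44.99 and 49.1 CPM in the nephritic mice, a small difference with narrow spread. Its departure was -0.37 ± 0.08, that of Edc4, a scaffold of mRNA decapping, -0.28 ± 0.06, and that of Kri1, of ribosome assembly, -0.46 ± 0.09. Tekt2, a tektin of cilia, departed by -1.38, and Cyb5r2, a reductase at no more than 0.457 CPM in any of the 8 mice, by -2.34. Few of these calls held in the 8 fits that left out 1 ZT8 mouse. Coro7 and Cyb5r2 were called in 1 of them, Edc4, Recql4, Hjurp and Tekt2 in 2, and Mcm10, Kri1 and Bhlhe41 in 4.

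**Figure D5:**
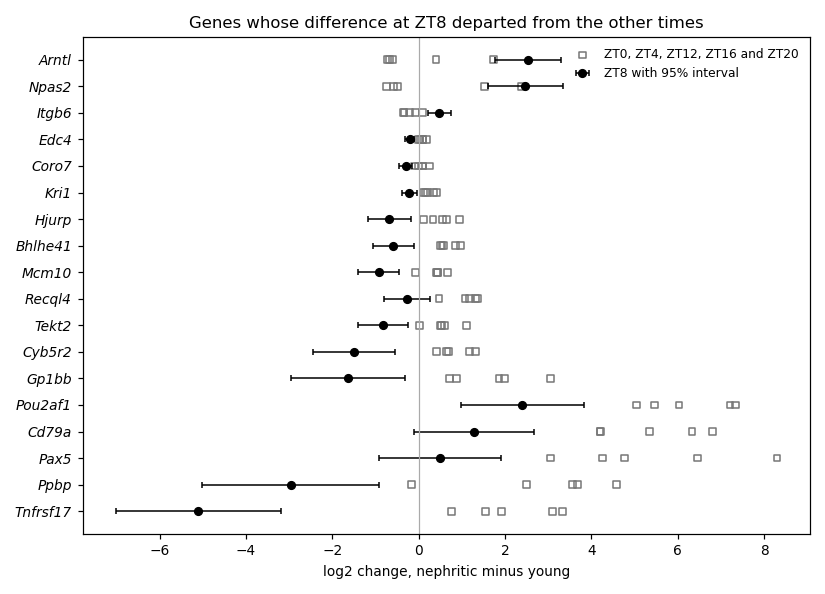
log2 change, nephritic minus young, of 18 of the 19 genes whose ZT8 difference departed from the other times, with ZT8 as filled points (bars, 95% interval) and the other 5 times as open squares. For Arntl the ZT8 point stands at 2.53 with the other times between -0.73 and 1.73, and for Itgb6 at 0.48 with the other times between -0.35 and 0.08.

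The nephritic minus young difference at ZT8 was also set against that of each neighbouring time. It departed from that at ZT4 in 34 genes (0.194% of those tested), 25 higher and 9 lower, and from that at ZT12 in 779 genes (4.45%), 136 higher and 643 lower. In the 46 libraries of Set 2 alone, the larger of the study's sample sets and the one that holds every ZT8 library, the order turned, with 448 genes against ZT4 and 93 against ZT12. Both comparisons share the ZT8 libraries. ZT4 had 4 mice a group and ZT12 had 7 young and 6 nephritic mice, and their nephritic mice had injury indices of 5.53 to 6.09 and 3.95 to 7.75, against 3.05 to 5.89 at ZT8. With the injury index as a covariate 3782 genes differed at ZT8, 1858 higher and 1924 lower, and all 641 were among them. In that fit 16 genes departed from the other times, 12 of them shared with the 19. The index was centred on the mean of all nephritic mice, and young mice were held at that centre. The ZT8 difference was thus fitted at the mean injury of all nephritic mice, not at that of the ZT8 mice. It is not a difference net of injury, and the index genes were themselves tested.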

How the data were processed

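The deposited files hold raw read counts per gene symbol, 1 library a file, made by the authors from poly(A)-selected RNA sequenced at 150 bp on build mm10. Their methods name a Burrows Wheeler aligner and the processing notes name HISAT. Uniquely aligned reads on exons and junctions with at most 2 mismatches were counted, and strand use is not stated, so antisense and overlapping genes cannot be told apart. 15 blank symbols were left out. All 57 young and nephritic libraries (46 of Set 2, 11 of Set 1; all ZT8 libraries are Set 2) were fitted in edgeR 4.0.16 under R 4.3.3, with TMM scaling, 1 mean per group and time and a set term. Genes with under 100 counts in all were dropped. Quasi-likelihood tests were adjusted by Benjamini-Hochberg, and scripts were tested on simulated counts. CPM are TMM-scaled. Log2 changes are nephritic minus young, ± SE, with 95% intervals. The named genes were the 8 of smallest p and the 6 of largest change each way without overlap, up to 10 departures each way, and up to 4 called and 2 uncalled members of each list. Other genes named, such as Slc6a19, were chosen after their values were seen. Members and lists were chosen with earlier results of these data known, and the liver markers after seeing these libraries. Alternatives used limma 3.58.1 and DESeq2 1.42.0. Replicates are labelled mice. Results for a few genes are not reported here.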

Additional observations from a re-analysis of the deposited data

Results flagged for a closer look

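Among the named genes, 230 groups of 4 ZT8 mice were checked for 1 value that stood apart by Dixon's criterion, and 18 had one, where about 5% of groups, or 1 in 20, would by chance. 10 of the 18 were values of nephritic mouse 3. It was the highest nephritic mouse in C1qb (183 CPM), C1qc (200 CPM), Ccl7 (8.37 CPM), Cdkn1a (34.6 CPM), Csf1r (111 CPM) and Oas1a (13.7 CPM), and the lowest in Ciart (1.01 CPM), Dbp (10 CPM), Marc1 (1.34 CPM) and Pcna (44.3 CPM).

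Young mouse 3 stood apart in 5 genes, high in Crot (219 CPM), Cyp2e1 (696 CPM), Sdc1 (51.4 CPM) and Serpina6 (129 CPM) and low in Timp1 (0.0699 CPM). Young mouse 4 stood apart in Cd79a (8.79 CPM) and in Clec4e, where 0.0413 CPM was the only count in the young group. Young mouse 1 stood apart in Tnfrsf17 (26.1 CPM).

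The nephritic minus young difference at ZT8 differed from the mean of the other times, by the test of that difference, in 13 named genes. It was higher in Arntl (2.50 on the log2 scale), Npas2 (2.06) and Itgb6 (0.66). It was lower in Cd79a (-4.11), Pou2af1 (-3.81), Tekt2 (-1.38), Recql4 (-1.36), Mcm10 (-1.31), Bhlhe41 (-1.29), Hjurp (-1.20), Kri1 (-0.46), Coro7 (-0.37) and Edc4 (-0.28).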

How the results depend on the processing

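Counts are given as higher/lower at ZT8, then higher/lower against the other times, then against ZT4 and against ZT12. The values reported were 495/146, 3/16, 34 and 779. They were 718/223, 14/49, 448 and 93 in Set 2 alone, 433/107, 1/11, 34 and 715 without the set term, 498/83, 2/7, 26 and 487 without a filter on low counts, and 1858/1924, 2/14, 77 and 270 with the injury index as a covariate. With the repeat libraries in place of their originals they were 481/109, 1/6, 22 and 305, with DESeq2 616/166, 18/40, 159 and 1091, and with limma 439/93, 1/3, 31 and 858. At an adjusted p under 0.01 they were 271/29, 1/2, 6 and 80. A log2 change of at least 1 left 429/57, and the 8 libraries alone gave 12/8. Against ZT4 and ZT12 together 26/107 genes departed. RLE scaling left every count within 1.5 times.

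On leaving out each ZT8 mouse, the higher genes ranged from 147 to 669 and the lower from 8 to 148, those that departed from 1 to 3 higher and from 2 to 13 lower, those against ZT4 from 9 to 30 and those against ZT12 from 106 to 1304. The lowest count of higher and lower genes and of genes against ZT4, and the highest against ZT12, came without nephritic mouse 3. The lowest against ZT12 came without nephritic mouse 1 (201 without nephritic mouse 2), and the fewest lower departures without nephritic mouse 1 (3 without young mouse 4). 2 pairs were left out after seeing the data. Without both mice 3 the counts were 101/9, 1/13, 6 and 867, and without young mice 1 and 4 they were 330/163, 0/2, 0 and 27. On leaving out each mouse the log2 change of Tnfrsf17 ranged from -5.53 to 0.40, which came without young mouse 1, and it was 0.72 without young mice 1 and 4. The cause of these changes was not tested. No paired analysis was possible because the replicate numbers were given in accession order and pair no mice.

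Without nephritic mouse 3, 51 changes or departures of named genes lost the threshold and 110 kept their side of it. Without young mouse 3, 32 lost it and 129 kept theirs. Low young counts limit Il1f6, Ccl20, Clec4e, Glycam1, Reg3g and Krt17.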
